A study of Mus musculus with 4 samples.

Results

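The activator protein 1 (AP-1) and immediate early genes described here were Fos, Fosb, Jun, Junb, Jund, Egr1, Ier2, Nr4a1, Klf2 and Klf6, taken by symbol as 10 of the 32272 gene rows of a mouse single-nucleus multiome matrix. Beside them stood the peaks of open chromatin within 50 kb of these genes, 262 of 174339, none of which lay near 2 of the genes. The nuclei came from bone marrow hematopoietic stem and progenitor cells (HSPCs), sorted as lineage negative and cKit positive, and each nucleus gave RNA molecules counted by unique molecular identifiers (UMIs) and transposase cuts in open chromatin (ATAC counts). The mice were C57BL/6 wild-type males, with the cells of several mice pooled into each sample. The samples were 1 control (Ctrl), whose teeth were not tied, and 1 ligature sample (Lig), whose second molars were tied with silk for 14 days to give periodontitis. Each was split into an RNA and an ATAC library, so that the labels gave 4 groups of 1 sample without replicates. Both samples share the deposited matrix, where a barcode ends in 1 or in 2, and the labels do not say which ending is which sample. The endings are called library 1 and library 2, they belong to no group, and no value was ascribed to ligature.

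AP-1 is a dimer of a Fos family and a Jun family protein, and it binds short palindromic DNA elements in promoters and enhancers. Fos, Fosb, Jun, Junb and Jund encode these subunits. Together with Egr1, Ier2, Nr4a1 and the Kruppel-like factors they belong to the genes that cells transcribe within minutes of a growth factor, cytokine or stress signal, before any new protein has to be made. Mitogen-activated kinases relay such signals to serum response factor, which binds CArG boxes, and to CREB and ATF factors, which bind cAMP response elements (CREs). In blood stem cells Egr1 and the Nr4a receptors are known for roles in quiescence. Immediate early genes are also known to be induced while tissue is dissociated and cells are sorted.

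The promoter sequences of these genes are shown first. The accessibility values below were not read from them but from peaks with an edge within 1 kb of a start. Of the 10 genes, 8 had a promoter of 300 bases, 250 before and 50 after the start, in the RefSeq table of GRCm38.p6. The 3 printed here, for the AP-1 subunits Fos and Jun and for the receptor Nr4a1, are written 5′ to 3′ on the gene's own strand, with capitals for the CRE core TGACG or its reverse complement, and in Jun for the CRE variant TGACATCA.
Fos promoter, chr12:85473640-85473939, plus strand: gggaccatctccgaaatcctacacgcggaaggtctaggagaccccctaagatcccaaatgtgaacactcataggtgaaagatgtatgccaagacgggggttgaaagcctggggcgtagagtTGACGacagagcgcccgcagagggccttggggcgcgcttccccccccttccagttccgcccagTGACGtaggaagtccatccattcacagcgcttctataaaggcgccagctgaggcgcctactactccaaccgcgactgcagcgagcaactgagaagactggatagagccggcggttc
Jun promoter, chr4:95052173-95052472, minus strand: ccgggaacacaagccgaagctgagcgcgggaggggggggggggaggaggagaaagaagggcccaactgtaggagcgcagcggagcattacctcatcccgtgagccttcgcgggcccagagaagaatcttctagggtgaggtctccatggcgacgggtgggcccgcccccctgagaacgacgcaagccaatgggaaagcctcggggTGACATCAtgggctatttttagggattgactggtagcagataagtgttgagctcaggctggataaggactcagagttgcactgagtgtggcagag
Nr4a1 promoter, chr15:101266596-101266895, plus strand: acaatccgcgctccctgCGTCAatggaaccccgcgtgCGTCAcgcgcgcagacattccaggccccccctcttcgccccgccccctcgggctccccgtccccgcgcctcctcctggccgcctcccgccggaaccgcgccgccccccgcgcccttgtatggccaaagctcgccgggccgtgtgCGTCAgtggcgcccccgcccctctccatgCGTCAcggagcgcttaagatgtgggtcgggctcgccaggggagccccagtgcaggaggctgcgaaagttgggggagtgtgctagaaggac
Searched on both strands, TGACG was present in 5 of these 8 promoters, those of Fosb, Klf2, Junb, Fos and Nr4a1, and in 20.8% of all 32851 promoters. The letters TGACATCA, searched after the sequences had been seen, were present in those of Jun and Klf6 and in 3.62% of all promoters. The AP-1 element itself, TGACTCA or TGAGTCA, was in 0 of the 8 promoters and in 5.20% of all, the full CRE TGACGTCA was in 0 and in 1.79%, and the CArG box was in 0 and in 1.63%. TGACG is part of the full CRE but not of the AP-1 element. A match is a description of the letters and not a shown binding site.

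The Jund promoter in the table (chr8:70697489-70697788) lies upstream of the deposited Jund start and overlapped no peak, and Ier2 and Egr1 have no entry, so the peaks at the deposited starts were searched as well. Peaks with an edge within 1 kb of a start of the 10 genes numbered 18, and 4 of them held a CArG box, against 3.09% of all peaks within 1 kb of a start. These lay at the starts of Fos, Fosb, Junb and Egr1. The full CRE was in 2 of the 18, at the starts of Jund and Ier2, against 3.13%. Those of all but Egr1 are shown as windows of 60 bases on the plus strand of GRCm38.p6 with the motif in capitals, since they carry the serum and CRE elements for which this gene class is known.
Fos CArG box, chr12:85473556-85473615: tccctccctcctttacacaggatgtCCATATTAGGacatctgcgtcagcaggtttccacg
Fosb CArG box, chr7:19310283-19310342: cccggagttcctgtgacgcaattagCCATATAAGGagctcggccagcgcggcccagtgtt
Junb CArG box, chr8:84980134-84980193: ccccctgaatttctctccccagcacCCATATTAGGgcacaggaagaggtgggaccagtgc
Jund CRE, chr8:70698709-70698768: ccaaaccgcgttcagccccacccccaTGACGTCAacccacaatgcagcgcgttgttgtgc
Ier2 CRE, chr8:84662864-84662923: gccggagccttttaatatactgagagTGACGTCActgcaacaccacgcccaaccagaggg
The motifs of Fos and Fosb lay at positions -304 and -262 from the start, and those of Jund and Ier2 at -210 and -42. The Junb box lay farther out, at -1446. Of the 201 peaks that lay over 1 kb from any start, 34 (16.9%) held an AP-1 element, against 17.9% of all such peaks in the matrix, so the neighbourhood of the AP-1 genes held AP-1 letters about as often as open chromatin elsewhere.

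Barcodes counted as nuclei here had 200 genes or more and peak counts from 1000 to 50000, which left 5905 of 8762 barcodes in library 1 and 7714 of 10199 in library 2, with 10294527 and 12537328 UMIs and 118239764 and 128699726 ATAC counts. The median nucleus held 636 genes in library 1 and 410 in library 2. Genes of the ribosomal locus took 38.2 to 60.8% of the UMIs of a population, with a higher share in library 2 in each named population. Joint clustering of RNA and ATAC, made without the 10 genes and their 262 peaks so that they could not draw the clusters, gave 20 clusters, and names ending in "-like" rest on marker UMIs alone. Those that held 100 nuclei or more in both libraries, 13 populations, were HSC-like (hematopoietic stem cell), LMPP-like (lymphoid-primed multipotent progenitor), MkP-like (megakaryocyte progenitor), EryP-like (erythrocyte progenitor), BaP-like (basophil progenitor), GMP-like (granulocyte-monocyte progenitor), NeuP-like (neutrophil progenitor), pDCP-like (plasmacytoid dendritic cell progenitor) and Pro-B-like nuclei and the unnamed clusters 0, 1, 4 and 8. Values are CPM, the UMIs of a gene or the ATAC counts of a peak scaled to the same fixed total in every population and library, and a ratio sets a population against all other nuclei of the same library. Intervals in parentheses are 95% intervals for counting error only, and since nuclei are not replicates no test was run. Summed markers of cells the sort should remove or that are not progenitors stood at 37.1 and 10.5 CPM for plasma cells, 1.46 and 1.44 for stroma, 121 and 75.9 for endothelium, mostly Pecam1, and 4.57 and 6.38 for macrophages, and their part in the results was not tested. Of the kept barcode sequences, 72 occurred in both libraries, and without them, a setting chosen after seeing the data, the same 4 genes met the fold rule.

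All 10 genes were detected, with the fewest UMIs for Nr4a1. Over all nuclei their sum was 1151 CPM in library 1 and 886 CPM in library 2. In nuclei thinned to 1000 UMIs each, 59.4% in library 1 and 52.8% in library 2 held at least 1 UMI of the 10 genes, and 3.33% and 1.57% held at least 5. All thinned shares leave out nuclei under 1000 UMIs (1040 and 1145 here), while shares before thinning cover every nucleus. A low share with at least 5 follows from the thinned depth and the level of the sum. How evenly the nuclei carried the group was not tested. In barcodes under 200 genes, which were left out, the sum was 636 and 481 CPM, below the level of the kept nuclei. That did not hold for each gene. In those barcodes Fos stood at 147 CPM (122 to 177) in library 1 and 98.6 CPM (81.6 to 118) in library 2, no lower than its 118 and 97.4 CPM over all nuclei, and Junb of library 2 stood at 53.9 CPM (41.5 to 68.9), against 55.0 CPM.

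The populations differed in the whole group. In HSC-like nuclei the sum was 1933 and 1388 CPM in libraries 1 and 2, 1.73-fold (1.61 to 1.86) and 1.60-fold (1.48 to 1.73) the level of other nuclei. In EryP-like nuclei the ratios were 1.78-fold (1.67 to 1.89) and 1.90-fold (1.76 to 2.04), and in BaP-like nuclei 2.12-fold (1.93 to 2.33) and 1.81-fold (1.62 to 2.01). These 3 populations were the highest of the 13 in each library. In GMP-like nuclei the sum was 649 and 531 CPM, or 0.552-fold (0.492 to 0.617) and 0.574-fold (0.529 to 0.621). That level overlaps in its interval with the sum in barcodes under 200 genes in each library. Pro-B-like nuclei stood at 0.645-fold (0.610 to 0.682) and 0.687-fold (0.624 to 0.754). HSC-like, EryP-like and BaP-like nuclei therefore held more of this RNA than GMP-like and Pro-B-like nuclei in both libraries. The Pro-B-like value was carried by the larger of its 2 clusters, cluster 2, with 666 and 587 CPM, while cluster 11 held 1578 CPM in library 1, above the level of all nuclei, and 814 CPM in library 2. With at least 500 genes per nucleus the EryP-like ratio of library 2 was 1.20 (1.05 to 1.37), on 96 nuclei.

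Counted gene by gene, 8 of the 10 were higher than in other nuclei in both libraries in HSC-like, EryP-like and BaP-like nuclei, where 55.0%, 57.2% and 34.0% of all genes tested were higher. In LMPP-like nuclei 6 were higher, against 54.4%, and 5 once genes of the ribosomal locus were left out of the totals, Egr1 dropping out. In the unnamed cluster 1 Fos, Fosb, Jund, Ier2, Klf2 and Klf6 were higher, 6 of the 10, against 19.8% of genes tested, and without the ribosomal locus 6 were higher with Junb in place of Ier2. All 10 were lower in both libraries in GMP-like, Pro-B-like and cluster 4 nuclei, where 35.3%, 22.1% and 28.6% of genes tested were lower, with and without the ribosomal locus. This did not hold within both Pro-B-like clusters, as cluster 11 held Jun at 475 and 238 CPM, against 203 and 133 CPM over all nuclei, and Jund at 417 and 247 CPM, against 211 and 174 CPM, where only the Jund interval of library 2 (163 to 359) reaches down to the level of all nuclei. The shares of genes tested are for totals with the ribosomal locus, and none was computed without it. They cover genes with at least 20 UMIs in the population, while all 10 were counted whatever their UMIs. Nr4a1 missed that minimum in GMP-like nuclei, and Nr4a1 and Klf2 missed it in BaP-like nuclei. By the stricter rule of at least 2-fold higher in both libraries with at least 20 UMIs, 4 of the 10 (Fosb, Egr1, Nr4a1 and Klf6) met the rule in some population, against 18% of the 9056 genes tested. Per population, this was Fosb, Egr1 and Klf6 in BaP-like nuclei (background 5.46%), Fosb and Egr1 in EryP-like nuclei (6.10%), Egr1 and Nr4a1 in HSC-like nuclei (6.20%) and Nr4a1 in LMPP-like nuclei (4.59%). Fosb in EryP-like nuclei was at 2.0 in its lower library and fell short of the rule in 5 of the alternatives tried, Fosb in BaP-like nuclei in 2 of them (1.71 with the ATAC limits set on halved counts) and Egr1 in HSC-like nuclei in 1 (1.73 with coarser clusters, where no LMPP-like cluster was set apart). With at least 500 genes per nucleus EryP-like, BaP-like and HSC-like nuclei of library 2 numbered 96, 20 and 78, under the 100 needed, and Nr4a1 in LMPP-like nuclei was the only call left. The plot of the 10 genes by population shows each level with its interval.

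**Figure D1:**
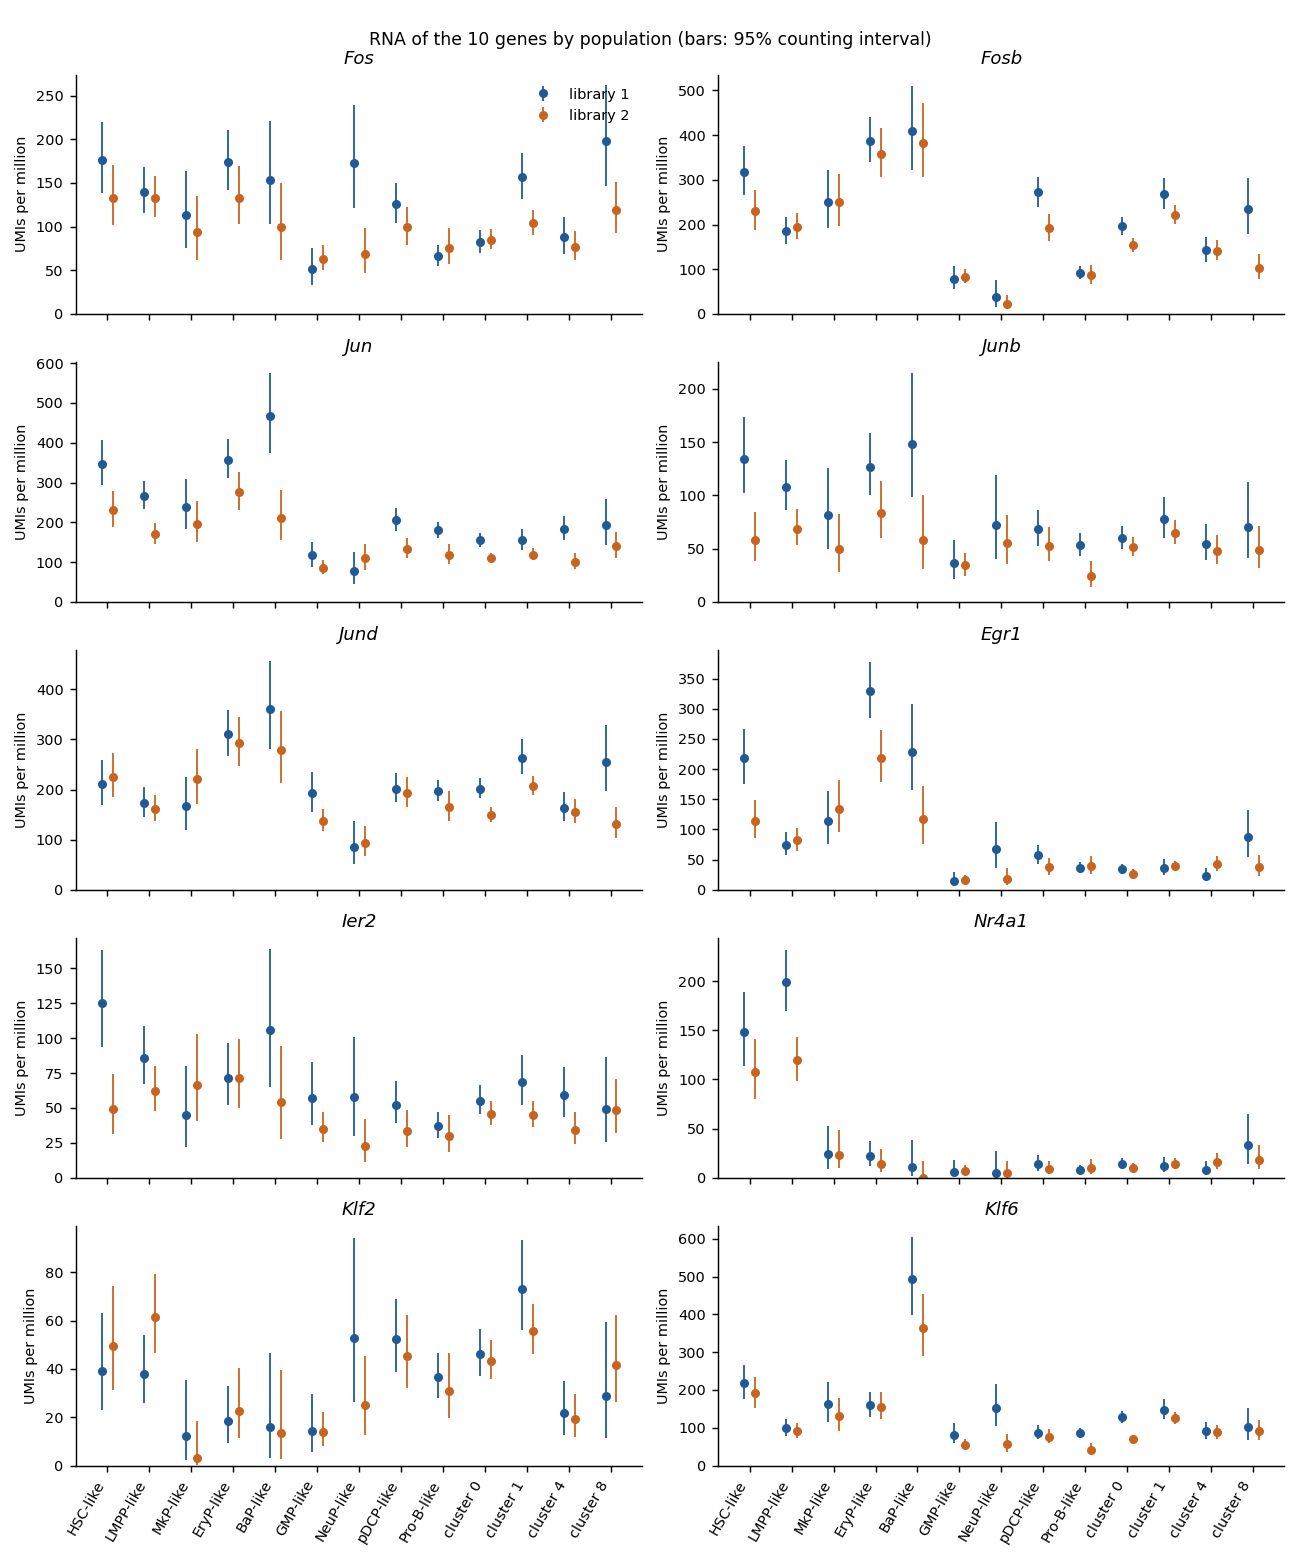
RNA of the 10 genes in 13 populations, with the population on the horizontal axis and CPM on the vertical axis, which starts at 0. Points are libraries 1 and 2 and bars are 95% counting intervals. Nr4a1 stands out in LMPP-like and HSC-like nuclei, Egr1 in EryP-like nuclei and Klf6 in BaP-like nuclei, in both libraries.

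Of the Fos family, Fos (ENSMUSG00000021250, start at chr12:85473890) encodes the founding AP-1 subunit. Its levels ran from 51.2 CPM in GMP-like to 198 CPM in cluster 8 nuclei in library 1, and from 63.4 CPM in GMP-like to 133 CPM in HSC-like nuclei in library 2. Among the 13 populations GMP-like nuclei were lowest in both libraries, whereas the top differed between them. The cMoP-like nuclei, too few to be among the 13, held 342 CPM (256 to 447) and 192 CPM (123 to 286), each above the top given for its library, in library 2 with an interval that covers it. In HSC-like nuclei the ratio was 1.52-fold (1.19 to 1.92) in library 1 and 1.39-fold (1.06 to 1.79) in library 2, short of 2-fold. In each library the interval of the highest level of Fos among the 13 populations overlaps with that of barcodes under 200 genes.

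Fosb (ENSMUSG00000003545, start interval at chr7:19309600) encodes a close relative of Fos and had a wider range. It was highest in BaP-like nuclei, with 409 and 382 CPM, and next in EryP-like nuclei, with 387 and 358 CPM, levels whose intervals overlap. The lower ratio of the libraries was 2.03 in BaP-like nuclei and 2.0 in EryP-like nuclei, at the edge of the rule. It was lowest in NeuP-like nuclei, with 8 UMIs (38.4 CPM) in library 1 and 10 UMIs (22.9 CPM) in library 2. That was 0.184-fold (0.0794 to 0.364) and 0.13-fold (0.0620 to 0.239) the level of other nuclei. Barcodes under 200 genes held 61.8 and 57.3 CPM, so NeuP-like nuclei held no more Fosb than those barcodes. Whether such barcodes are empty was not tested, so their level is not a measured background.

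Among the Jun family, Jun (ENSMUSG00000052684, start at chr4:95052222) encodes the partner of Fos in the classical AP-1 dimer. In EryP-like nuclei it stood at 357 and 276 CPM, or 1.85-fold (1.60 to 2.13) and 2.18-fold (1.81 to 2.60). HSC-like nuclei followed with 1.77-fold (1.49 to 2.09) and 1.78-fold (1.45 to 2.17). In BaP-like nuclei the libraries differed, with 467 CPM in library 1 and 211 CPM in library 2, and their intervals do not overlap. Junb (ENSMUSG00000052837, start at chr8:84978718), which encodes a Jun relative that restrains stem and myeloid progenitor growth in mice, ran lower in Pro-B-like nuclei, with 53.1 and 24.2 CPM, and in GMP-like nuclei, with 36.9 and 34.1 CPM. Jund (ENSMUSG00000071076, start at chr8:70698949) encodes the most broadly expressed Jun subunit. It was highest in BaP-like nuclei of library 1 and EryP-like nuclei of library 2, and these populations had 361 and 279 CPM and 310.5 and 292 CPM in the 2 libraries. NeuP-like nuclei were lowest for Jund in both libraries, with 86.3 and 94.1 CPM.

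Nr4a1 (ENSMUSG00000023034, start interval chr15:101254269-101266846) encodes an orphan nuclear receptor that is switched on by antigen and growth signals. By the lower of the libraries it had the largest population ratio of the 10 genes among the 13 populations. In LMPP-like nuclei it held 162 UMIs (199 CPM) in library 1 and 115 UMIs (119.5 CPM) in library 2, 8.94-fold (7.24 to 11.0) and 7.10-fold (5.59 to 8.98) the level of other nuclei. In HSC-like nuclei it held 64 UMIs (148 CPM) and 50 UMIs (107 CPM), or 4.73-fold (3.55 to 6.21) and 4.99-fold (3.61 to 6.77). Without correction between libraries the cluster named HSC-like was wider, with 560 and 660 nuclei in place of 268 and 338, and its ratio in the lower library was 2.99. At resolution 0.4 no LMPP-like cluster was set apart, so that the ratio of 8.02 for the cluster named HSC-like there, of 884 and 1207 nuclei, is for another population. The intervals of the levels in LMPP-like and HSC-like nuclei overlap in each library, and the remaining 11 of the 13 populations stood below both. Those 2 populations held 60.6% (55.4 to 65.6%) of all Nr4a1 UMIs in library 1 and 53.2% (47.5 to 58.9%) in library 2, and 12.1% and 11.4% of all UMIs. The cMoP-like nuclei, too few to be among the 13, also held high Nr4a1 levels, given under the other observations.

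The low end of Nr4a1 was close to the level in barcodes with little RNA. GMP-like nuclei held 3 and 8 UMIs, 6.14 and 6.50 CPM. BaP-like nuclei of library 2 held 0 UMIs of 222227, which allows up to 13.5 CPM. Barcodes under 200 genes held 12.6 and 9.27 CPM, so such levels were not distinguishable from the level in those barcodes. The same held for Egr1 in GMP-like nuclei, described next, where those barcodes held 23.9 and 19.4 CPM. In nuclei thinned to 1000 UMIs, 16.6% of LMPP-like nuclei in library 1 and 10.4% in library 2 held a Nr4a1 UMI, against 1.16% and 0.310% of GMP-like nuclei. Left out under 1000 UMIs were 49 and 82 LMPP-like and 21 and 70 GMP-like nuclei. Over every nucleus and before thinning the shares were 25.5% and 15.7% in LMPP-like and 1.07% and 1.12% in GMP-like nuclei.

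Egr1 (ENSMUSG00000038418, on chromosome 18) encodes a zinc finger factor that is known to hold stem cells in the marrow niche. EryP-like nuclei were highest in both libraries, with 197 UMIs (329 CPM) and 107 UMIs (219 CPM), or 6.06-fold (5.12 to 7.15) and 4.93-fold (3.97 to 6.07). HSC-like nuclei had 218 and 114 CPM, or 3.41-fold (2.72 to 4.24) and 2.33-fold (1.73 to 3.09). BaP-like nuclei were close to them, with 228 and 117 CPM, and MkP-like nuclei had 114 and 133 CPM. In library 2 the intervals of these 3 populations overlap, and in library 1 those of HSC-like and BaP-like nuclei do. GMP-like nuclei were lowest, with 14.3 and 15.4 CPM. After thinning, 27.6% and 20.2% of EryP-like nuclei held an Egr1 UMI, against 1.16% and 1.70% of GMP-like nuclei. Before thinning these shares were 34.5% and 26.2% and 2.5% and 2.65%. The gap from the erythroid to the granulocyte-monocyte branch was therefore wider for Egr1 than the counting error of either.

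Ier2 (ENSMUSG00000053560, start at chr8:84662854) encodes a small nuclear protein induced by growth signals. Among the 13 populations its levels ran from 37.1 CPM in Pro-B-like to 125 CPM in HSC-like nuclei in library 1 and from 22.9 CPM in NeuP-like to 71.6 CPM in EryP-like nuclei in library 2. Its top by the lower of the libraries was in LMPP-like nuclei, with 86 and 62.4 CPM, or 1.47-fold (1.13 to 1.89) and 1.46-fold (1.10 to 1.92). HSC-like nuclei showed 2.16-fold (1.60 to 2.86) in library 1 but 1.13-fold (0.707 to 1.71) in library 2.

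Klf2 and Klf6 encode Kruppel-like zinc finger factors, of which Klf2 is known for lymphocyte quiescence and Klf6 for vascular and myeloid gene control. Klf6 (ENSMUSG00000000078, start at chr13:5861482) held 93 UMIs (493 CPM) and 81 UMIs (364 CPM) in BaP-like nuclei, or 4.14-fold (3.32 to 5.12) and 3.99-fold (3.15 to 5.01). HSC-like nuclei came next, with 218 and 191 CPM. In BaP-like nuclei thinned to 1000 UMIs, 34.0% and 30.8% held a Klf6 UMI, 42.9% and 35.3% before thinning, and in GMP-like nuclei 6.18% and 4.49% after thinning. Klf2 (ENSMUSG00000055148, start at chr8:72319033) went the other way. It stood at 15.9 and 13.5 CPM in BaP-like, 18.4 and 22.5 CPM in EryP-like and 12.2 and 3.34 CPM in MkP-like nuclei. The MkP-like value rests on 3 and 1 UMIs. Barcodes under 200 genes held 17.6 and 32.9 CPM of Klf2, so these low levels were close to or below the level in those barcodes. Over the 13 populations Pearson r for log2 levels of Klf2 was weak, at -0.37 and -0.13 against Jun but 0.26 and 0.38 against Fos, and includes those low levels. By the lower of the libraries the closest pairs were Fosb with Jund, at 0.81 and 0.92, and Jun with Egr1, at 0.74 and 0.95. In library 1 alone Junb with Egr1 was closest, at 0.92, against 0.54 in library 2. These points share libraries and depth, and r is given as a description over 13 populations.

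The start regions of the genes varied less between populations than their RNA. Summed over the 18 peaks at the starts, EryP-like nuclei had 986 and 965 ATAC CPM, 1.18-fold (1.13 to 1.22) and 1.19-fold (1.14 to 1.24) of other nuclei. HSC-like nuclei had 1.02-fold (0.972 to 1.06) and 1.08-fold (1.03 to 1.13), and GMP-like nuclei 0.887-fold (0.853 to 0.923) and 0.854-fold (0.829 to 0.879). NeuP-like nuclei were highest of the 13, with 1.39-fold (1.32 to 1.47) and 1.24-fold (1.18 to 1.30). In RNA 0 of the 10 genes were higher there in both libraries and 6 were lower, against 28.4% and 51.7% of genes tested. Without the ribosomal locus in the totals 1 was higher, Junb, and 4 were lower. The summed counts of all start peaks in the matrix were not computed by population, so the summed ratios have no background beside them. For Fosb the start peaks of NeuP-like nuclei were 1.29-fold (1.05 to 1.57) and 1.40-fold (1.20 to 1.63) those of other nuclei, while its RNA was lowest in that population. NeuP-like nuclei held fewer ATAC counts and genes than the median nucleus, with medians of 10550 and 9248 ATAC counts and of 294 and 259 genes, and the part of this in the result was not tested.

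**Figure D2:**
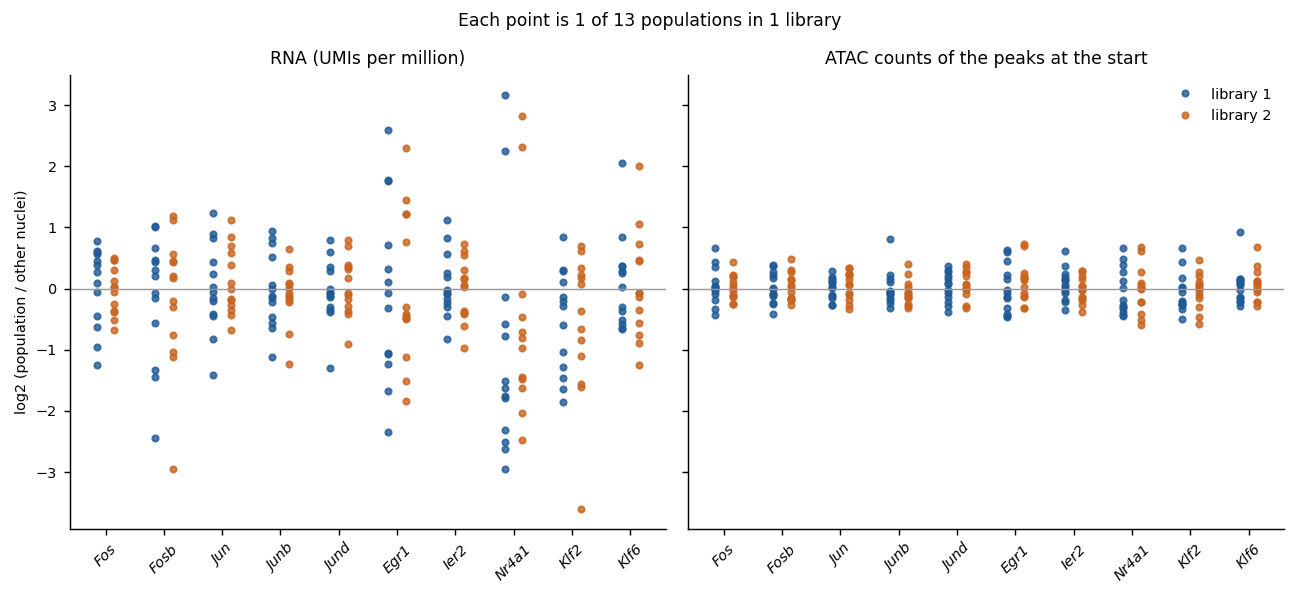
Ratio of each of 13 populations to other nuclei of the same library on a log2 axis, for RNA of the 10 genes on the left and for ATAC counts of the peaks at their starts on the right. Each point is 1 population in 1 library, and Nr4a1 in BaP-like nuclei of library 2, at 0 UMIs, is not drawn. RNA ratios reach 8.94 for Nr4a1 in LMPP-like and 6.06 for Egr1 in EryP-like nuclei, while the ratios at all starts stay within about 1 log2 unit of 0.

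Gene by gene, the highest level over the lowest among 13 populations was 22.9 and 14.2 for RNA of Egr1 and 1.98 and 1.96 for its start peaks. It was 41.5 for RNA of Nr4a1 in library 1 and 2.11 for its start peaks. The lowest RNA levels rested on 7 and 19 UMIs for Egr1 and on 1 UMI for Nr4a1 in library 1. Low UMI counts widen the range of RNA, so the 2 ranges do not carry the same counting error. Egr1 start peaks stood at 1.51-fold (1.37 to 1.66) and 1.65-fold (1.48 to 1.84) in EryP-like nuclei, which were highest in Egr1 RNA. They were as open in Pro-B-like nuclei, at 1.54-fold (1.46 to 1.63) and 1.62-fold (1.48 to 1.76), where Egr1 RNA was below that of other nuclei. Nr4a1 start peaks were highest in HSC-like nuclei, with 1.59-fold (1.38 to 1.83) and 1.61-fold (1.39 to 1.85). LMPP-like nuclei had 1.31-fold (1.16 to 1.46) and 1.53-fold (1.38 to 1.70), and in library 1 NeuP-like nuclei, with 1 Nr4a1 UMI, had 1.39-fold (1.11 to 1.72). Start accessibility and RNA thus shared part of their order only. In contrast, Klf6 had nearly the same start accessibility in BaP-like as in other nuclei, 0.980-fold (0.779 to 1.22) and 1.06-fold (0.834 to 1.32), where its RNA was about 4-fold higher.

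Of the 262 peaks, 232 had at least 100 ATAC counts in some population, and 44 were at least 2-fold higher in both libraries in a population, against 23.0% of the 108095 peaks tested. Split by place, this was 2 of 18 peaks at the starts of the 10 genes, 7 of 40 at starts of other genes and 35 of 174 away from starts, against 9.16% of all peaks near a start and 26.2% of all peaks away from one. By population the counts were 19 of 159 in Pro-B-like nuclei (background 17%), 8 of 66 in NeuP-like (12.9%), 6 of 83 in EryP-like (11.8%), 4 of 131 in LMPP-like (6.29%), 3 of 153 in GMP-like (5.85%), 2 of 59 in MkP-like (6.92%), 1 of 46 in BaP-like (2.58%) and 0 of 75 in HSC-like nuclei (5.87%). None of these population shares, over all places together, stood above its background. At starts alone, those of the 10 genes and of other genes together, 3 of the populations listed did. These were NeuP-like with 3 of 33 (background 2.89%), Pro-B-like with 3 of 49 (4.51%) and GMP-like nuclei with 2 of 53 (0.985%). In the other populations listed 0 start peaks met the rule. Among the populations not listed, cluster 0 stood above its background at starts, with 1 of 57 (0.409%). Over all starts it was 9 of 58, above the 9.16%, on few peaks. The peaks described next lie at Nr4a1 and Egr1, whose RNA ratios were the largest, and were chosen after their values were seen. Larger peak ratios at both genes lay in Pro-B-like nuclei, where their RNA was lower than in other nuclei. Those are given under the other observations.

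In an intron of Nr4a1, a peak centred at position 4436 from the nearest start (chr15:101258370-101259040) had 32.0 and 24.8 ATAC CPM in LMPP-like nuclei, or 4.05-fold (3.33 to 4.90) and 3.89-fold (3.12 to 4.81). In HSC-like nuclei it had 1.53-fold (1.05 to 2.15) and 1.84-fold (1.23 to 2.65), and in GMP-like nuclei 0.330-fold (0.167 to 0.588) and 0.223-fold (0.118 to 0.384). A peak behind the gene at position 8989 (chr15:101275407-101276264) had 3.56-fold (2.53 to 4.92) and 3.58-fold (2.62 to 4.82) in LMPP-like nuclei. Both peaks held a CArG box, a feature of 5.97% of the 201 peaks away from starts and of 4.29% of all such peaks, and the motif windows are shown for that reason, on the plus strand with the box in capitals, the second window ending at the edge of the peak.
Nr4a1 intron CArG box, chr15:101258953-101259012: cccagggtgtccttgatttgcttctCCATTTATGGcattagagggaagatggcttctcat
Nr4a1 downstream CArG box, chr15:101276229-101276264: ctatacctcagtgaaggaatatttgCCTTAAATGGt
At the upstream start of Nr4a1 (chr15:101253740-101254601) HSC-like nuclei had 24.4 and 31.4 ATAC CPM, or 1.90-fold (1.43 to 2.48) and 2.28-fold (1.76 to 2.91), and LMPP-like nuclei 1.73-fold (1.38 to 2.13) and 2.0-fold (1.64 to 2.42). Each fell short of 2-fold in library 1. At the downstream start, whose promoter is printed above, the ratios in HSC-like nuclei were 1.54-fold (1.29 to 1.82) and 1.46-fold (1.22 to 1.74). The ratios at the starts were thus smaller than those of Nr4a1 RNA in the same populations.

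At Egr1, 3 peaks away from starts met the rule in EryP-like nuclei. The one at position -5340 had 23.6 and 19.2 ATAC CPM, or 3.20-fold (2.42 to 4.16) and 2.38-fold (1.68 to 3.28), and met it in MkP-like nuclei as well. The one at position 4282 had 24.1 and 21.9 CPM, or 7.53-fold (5.60 to 10.0) and 4.01-fold (2.88 to 5.47). The third, at position 19136, had 29.2 and 24.5 CPM, or 7.38-fold (5.65 to 9.56) and 10.2-fold (7.30 to 14.1), and met the rule in Pro-B-like nuclei too. The first and second of these held an AP-1 element. In BaP-like nuclei, where Egr1 RNA was also higher, the peak at position 4282 had 5.08-fold (3.19 to 7.76) and 3.19-fold (1.98 to 4.91), on 48 and 44 counts, short of the 100 that the rule needs. In HSC-like nuclei the libraries differed for that peak, with 0.894-fold (0.404 to 1.73) in library 1 and 1.98-fold (1.27 to 2.96) in library 2, and the other 2 peaks had ratios below 1 in both. HSC-like nuclei thus had high Egr1 RNA without meeting the rule at any of the 3 peaks. Those peaks were chosen as ones that met the rule in EryP-like nuclei.

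**Figure D3:**
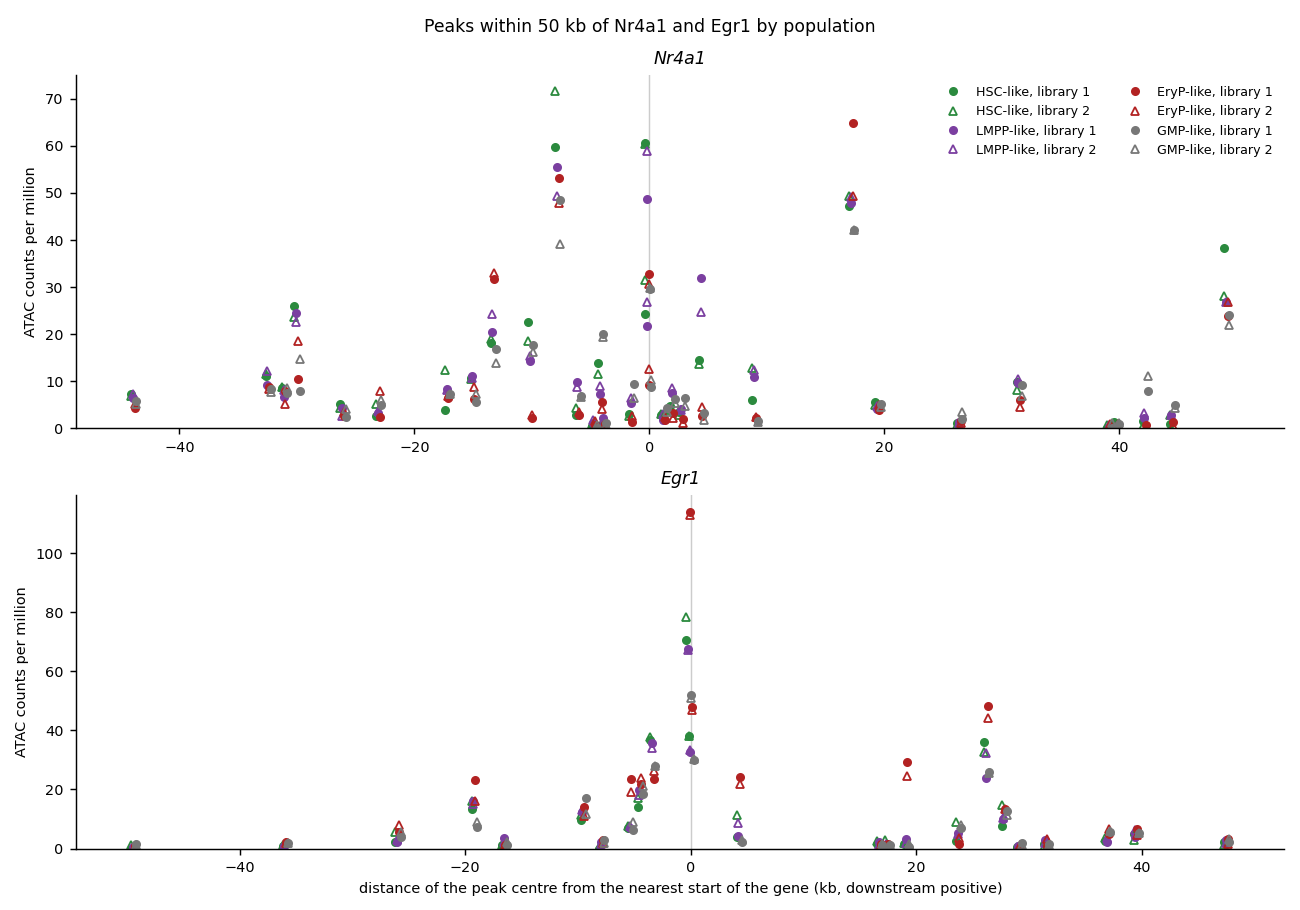
ATAC CPM of each peak within 50 kb of Nr4a1 (top) and Egr1 (bottom), against the distance of the peak centre from the nearest start of the gene in kb, downstream positive. Filled circles are library 1 and open triangles library 2, in colours for HSC-like, LMPP-like, EryP-like and GMP-like nuclei. At Nr4a1 the intron peak is highest in LMPP-like nuclei, and at Egr1 the start and 3 distal peaks are highest in EryP-like nuclei among the 4 populations drawn.

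For the other genes, the peak with the largest population ratio was often near a neighbouring gene. At Klf6 it was an intergenic peak (chr13:5875231-5876100) with 3.28-fold (1.95 to 5.22) and 2.69-fold (1.87 to 3.76) in NeuP-like nuclei. At Ier2 it lay in introns of Lyl1 and Nfix (chr8:84703392-84704157), with 2.92-fold (2.12 to 3.94) and 2.97-fold (2.16 to 3.99) in BaP-like nuclei. At Jund it lay in an exon of Pgpep1 (chr8:70649024-70649918), with 5.97-fold (4.01 to 8.69) and 5.53-fold (3.61 to 8.20) in EryP-like nuclei. At Fosb it lay in an intron of Vasp (chr7:19269467-19270206), with 3.03-fold (1.90 to 4.61) and 2.10-fold (1.44 to 2.97) in NeuP-like nuclei. At Jun it lay at the start of the neighbouring antisense gene Junos (chr4:95092935-95093814), with 4.54-fold (2.51 to 7.81) and 3.09-fold (2.0 to 4.67) in GMP-like nuclei, where Jun RNA was lowest or next to lowest. At Klf2 it lay in an intron of Eps15l1 (chr8:72363204-72364073), and at Fos at the start of Gm40477 (chr12:85435930-85436775), both highest in Pro-B-like nuclei with ratios of 6.71 and 7.29 and of 8.08 and 7.67. Junb had no peak at 2-fold in both libraries. Which gene such a peak serves was not measured.

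Genes that work with the 10 were read from lists that were chosen with earlier results of these data known. Their counts beside a background are therefore a description and no independent support. Of 23 tested in a list of 25 other immediate early genes, 11 met the 2-fold rule in some population, against 18% of all genes tested. The largest ratio was for Nr4a3, a relative of Nr4a1, which stood at 30.7 and 20.8 CPM in LMPP-like nuclei, 5.71-fold and 7.29-fold the level of other nuclei. Ier3, a stress-induced survival gene, reached 5.45-fold and 5.50-fold in BaP-like nuclei, on 13 UMIs in each library. Zfp36l1, which encodes a protein that destabilises AU-rich mRNA, reached 5.01-fold and 5.93-fold in Pro-B-like nuclei. Nr4a2 met the rule in HSC-like nuclei, Dusp5, a phosphatase of ERK, in HSC-like and LMPP-like nuclei, and Dusp2 in LMPP-like nuclei. The other 5 had their largest ratio as follows. Sgk1 and Dusp6 reached 5.42 and 4.79 and 3.02 and 3.10 in Pro-B-like nuclei, where each of the 10 genes was lower. Tnfaip3 reached 3.07 and 5.27 in BaP-like, Per1 2.38 and 2.30 in LMPP-like and Egr3 2.23 and 2.88 in pDCP-like nuclei. The median of the list was 0.62 and 0.54 (log2 ratio) in LMPP-like nuclei, where the median of all genes was 0.21 and 0.20, and -0.69 and -0.53 in GMP-like nuclei, where it was -0.08 and 0.02.

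Of 10 tested in a list of 14 AP-1 and Maf partners, 3 met the rule, against 18% of all genes tested. Maf and Bach2, which encode basic leucine zipper factors, reached 8.77-fold and 13-fold and 5.38-fold and 8.88-fold in Pro-B-like nuclei. That is 1 of the 3 populations in which each of the 10 genes was lower. Fosl2, another Fos relative, reached 2.65-fold and 3.76-fold in HSC-like nuclei, on 16 and 18 UMIs. Of 21 tested in a list of 22 upstream kinases and factors, 3 met the rule, against the same 18%. They were Elk4, a partner of serum response factor, in Pro-B-like, Mef2c in LMPP-like and Crem, a CREB relative, in EryP-like nuclei. Their ratios were 3.40 and 3.86, 2.80 and 2.65 and 2.23 and 2.64. The kinases themselves did not meet the rule.

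Heat shock genes were read as a list for cell stress. Against 18% of all genes tested, 0 of these 10 met the 2-fold rule in any population. Their median log2 ratio was 0.57 and 0.24 in EryP-like nuclei, 0.12 and 0.19 in HSC-like nuclei, -0.24 and -0.05 in BaP-like nuclei and -0.32 and 0.06 in GMP-like nuclei, where all genes tested had medians of 0.24 and 0.27, 0.23 and 0.24, 0.04 and 0.00 and -0.08 and 0.02. The part of cell handling in the levels of the 10 genes was not tested. Genes whose profile over the 13 populations was most like the sum of the 10 were Ddx5, Malat1, Pitpnc1, Chd2 and Klf13, with Pearson r in the lower library of 0.88, 0.84, 0.82, 0.81 and 0.80, among the 1636 genes that had 500 UMIs or more in both libraries.

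Between the libraries, each of the 10 genes had a lower level in library 2 over all nuclei, as had 91.2% of the 10614 genes that reached 20 UMIs in both. The log2 ratio of library 2 to library 1 was -0.61 (-0.71 to -0.52) for Jun, -0.55 (-0.77 to -0.33) for Nr4a1, -0.51 (-0.66 to -0.36) for Junb and -0.13 (-0.32 to 0.05) for Klf2, with Jun and Klf2 at the ends of the range. For the sum it was -0.38 (-0.41 to -0.34). The median of all genes was -0.63, and the ratio of each of the 10 was above that median. None of the 10 met the rule of a 2-fold difference, which 17.6% of genes met downward and 0.188% upward. Leaving the ribosomal locus out of the totals gave -0.09 for the sum, and scaling by the median of ratios gave 0.25, so the direction depends on the scale. Within the 13 populations the log2 ratio of the sum ran from -0.05 in MkP-like to -0.70 in NeuP-like nuclei. The 262 peaks took 0.333% (0.332 to 0.335%) of ATAC counts in library 1 and 0.334% (0.332 to 0.335%) in library 2, intervals that overlap.

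**Figure D4:**
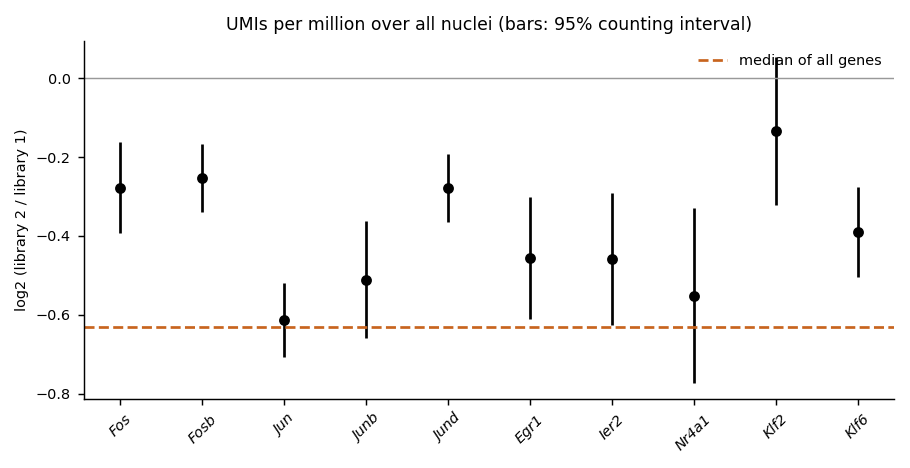
Log2 ratio of CPM in library 2 to library 1 over all nuclei for each of the 10 genes, with 95% counting intervals as bars, and the median of all genes as a dashed line at -0.63. Points lie from -0.61 for Jun to -0.13 for Klf2, all above the dashed line, and the libraries belong to no group.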

How the data were processed

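Single-nucleus multiome libraries of sorted bone marrow progenitors were read from 1 matrix that the authors deposited as raw counts, UMIs for genes and transposase cuts for peaks. Per the submitters' processing notes it was made with Cell Ranger ARC 2.0.0 on GRCm38 (mm10), and Seurat 4.0.3 and Signac 1.3.0 followed. Of nonzero peak counts 82.5% were even, so ATAC intervals were computed on pairs of counts. Nuclei (200 genes or more, peak counts from 1000 to 50000) were clustered on 3000 variable genes (30 principal components) and on peaks (LSI components 2 to 30), without the 10 genes and their peaks, corrected between libraries and joined over both modalities in Seurat 5.3.0 (Louvain, resolution 0.8). Other steps used Python 3.11.15, scanpy 1.11.5, numpy 2.4.6, scipy 1.17.1 and pandas 2.3.3. Scrublet scored doublets and marked 0.03% of nuclei, so it had not worked. No nuclei were removed by it, and an alternative left out the top 8% of scores. Clusters were named from marker UMIs alone.

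A ratio of CPM sets a population against other nuclei of its library. A gene met the rule at 2-fold in both libraries with at least 20 UMIs in the population, and a peak at 2-fold with at least 100 counts. With 1 pooled sample a condition, and libraries that no label ties to a condition, no p was computed. The text names all 10 genes, the 3 genes per companion list with the largest ratio in the lower library (and others where a count is spelled out, chosen after their values were seen), the 5 genes most like the summed 10, and for each gene the peak with the largest population ratio. Further peaks at Nr4a1 and Egr1 were chosen after their values were seen. Members and lists were chosen with earlier results of these data known. Motifs were searched as exact letters on both strands, in RefSeq promoters and in peak sequences of GRCm38.p6. Alternatives covered the gene and ATAC limits, doublets, the ribosomal locus, scaling, resolution, correction between libraries, the UMI minimum and the window. The 2-fold rule for genes was tried on simulated counts for LMPP-like nuclei.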

Additional observations from a re-analysis of the deposited data

Results flagged for a closer look

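The barcodes that the nucleus limits left out also held RNA of the 10 genes, outside the comparisons of populations. Those under 200 genes served above as a level for comparison. In library 1 the 2857 barcodes left out held 2689 UMIs of the 10 genes among 2615679, or 1028 CPM (990 to 1068, counting error only). In library 2 the 2485 barcodes left out held 1492 among 2169440, or 688 CPM (653 to 724). Those with under 200 genes stood lower, at 636 and 481 CPM. They held 505 UMIs of the 10 genes among 793422 in library 1 and 571 among 1186329 in library 2. Over the kept nuclei the sum was 1151 and 886 CPM, above the total for the barcodes left out in both libraries. That total includes the barcodes under 200 genes, so the rest, with 200 genes or more, stood above 1028 and 688 CPM. Their own level was not computed, and a level below the kept nuclei is not shown for them. Whether the barcodes left out are empty was not tested.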

How the results depend on the processing

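Of 107 alternative values of the main comparisons, 83 stayed within the counting interval (or, for counts of genes, within 1.5 times the main count), 23 moved outside it and 1 turned its direction, and of 64 for single genes 56 kept their side of 2-fold and 8 fell short of it. With at least 500 genes per nucleus the sum in Pro-B-like nuclei was 0.560 and 0.608 of other nuclei in libraries 1 and 2, in library 2 it was 1.81 in HSC-like, 0.700 in GMP-like and 1.20 in EryP-like nuclei, 1 gene (Nr4a1) met the rule in place of 4, as EryP-like, BaP-like and HSC-like nuclei fell under 100 in library 2 and were not tested, and the ATAC share of library 1 was 0.330%. ATAC limits on halved counts gave 1.66 for EryP-like nuclei of library 1, and 3 of the 10 genes met the rule under that setting, without Fosb. Without the ribosomal locus in the totals the sum was 2020.1 and 1892 CPM, the HSC-like ratio of library 1 was 1.59 and the log2 ratio between libraries was -0.095, and with median-of-ratios scaling that ratio turned to 0.25. At resolution 0.4 the EryP-like ratio of library 1 was 1.59 and the ratios of the cluster named HSC-like were 1.36 and 1.38, for 884 and 1207 nuclei in place of 268 and 338, as no LMPP-like cluster was set apart there. With no correction between libraries they were 1.39 and 1.42, for 560 and 660 nuclei. Windows of 10 kb and 100 kb gave ATAC shares of 0.156% and 0.158% and of 0.553% and 0.551%, as wider windows hold more peaks, and leaving out peaks at starts of other genes gave 0.244% and 0.248%. Where no construction of the alternative shows it, the cause was not tested. Leaving out barcodes shared by the libraries, and clusters 18 and 19, was chosen after seeing the data. No paired analysis was possible because the libraries are tied to no sample. Depth limits genes with few UMIs in a population, such as Nr4a1 and Klf2 at their low ends.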

Other observations

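Populations under 100 nuclei in a library were not among the 13, and some held high levels of single genes. In Pro-NK/T-like nuclei Junb, a regulator of lymphocyte effector genes, stood at 255 and 192 CPM, 3.35-fold (2.26 to 4.80) and 3.56-fold (2.13 to 5.61) of other nuclei, on 31 and 19 UMIs. In B-like nuclei Klf2, which keeps lymphocytes quiescent, stood at 135 and 153 CPM, 3.25-fold (2.06 to 4.90) and 3.94-fold (2.02 to 6.95), on 24 and 12 UMIs. In cMoP-like nuclei (common monocyte progenitor) Fos stood at 342 and 192 CPM and Nr4a1 at 109.7 and 88.1 CPM.

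The low level of the 10 genes in Pro-B-like nuclei was not even across them. Of the 2 clusters they comprise, cluster 2 held 666 CPM (626 to 709) of the summed genes in library 1 and 587 CPM (529 to 649.6) in library 2, and cluster 11 held 1578 CPM (1422 to 1746) and 814 CPM (654 to 1002). Jun stood at 134 CPM (116 to 154) and 97.8 CPM (75.0 to 125) in cluster 2 and at 475 CPM (392 to 572) and 238 CPM (155 to 349) in cluster 11. The intervals of Jun do not overlap between the clusters in either library.

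The largest ratios of single peaks lay in Pro-B-like nuclei, where RNA of the 10 genes was low. A peak at position 31517 from the Egr1 start had 35.5 and 27.2 ATAC CPM there against 1.56 and 1.65 in other nuclei, 22.7-fold (17.7 to 29.4) and 16.5-fold (12.4 to 21.9). A peak near Nr4a1 (chr15:101249994-101250783) had 14.8-fold (10.3 to 21.7) and 17.2-fold (10.9 to 27.1).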
